A study of Mus musculus with 2 samples.

Results

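Cxcl9, Cxcl10 and Cxcl16, which encode chemokines that interferons can induce, and Cxcr3 and Cxcr6, which encode their receptors, were followed as 5 of the 27999 genes in each count matrix. The genes were chosen by name, and their levels were read in all kept cells and in cell classes found by marker gates. The matrices come from droplet single-cell RNA sequencing (10x Genomics) of whole dissociated lungs of female FVB/NJ mice that received, at 10 weeks of age, a tail vein injection of 500000 cells of the murine mammary carcinoma line Met-1. Each group is 1 lung. A mouse killed 1 week after injection gave the low-burden library and a mouse killed at week 3 gave the high-burden library. Both mice were injected with Met-1 cells, so neither is an uninjected control, although 0 low-burden cells passed the metastatic gate. With 1 library per group no test between groups is possible, and week, metastatic burden, sequencing depth and mouse differ together and cannot be told apart.

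CXCL9 and CXCL10 are secreted chemokines that attract lymphocytes through the receptor CXCR3, and both genes are classical targets of interferon gamma, with CXCL10 also induced by type I interferon and by NF-kB. CXCL16 is made as a membrane-bound protein that ADAM proteases can release, and it is the ligand of CXCR6. CXCR3 is best known on activated T and NK cells and CXCR6 on tissue-resident and effector lymphocytes, and plasmacytoid and some conventional dendritic cells also carry CXCR3.

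By the GENCODE M21 annotation of GRCm38, the assembly of mm10, Cxcl9 (ENSMUSG00000029417) lies on the minus strand of chromosome 5 from 92321347 to 92328079. Cxcl10 (ENSMUSG00000034855) lies on the same strand from 92346638 to 92348889, with 18558 bases between both genes. Cxcl16 (ENSMUSG00000018920) lies on the minus strand of chromosome 11 from 70453983 to 70459984, Cxcr3 (ENSMUSG00000050232) on the minus strand of chromosome X from 101731535 to 101734269, and Cxcr6 (ENSMUSG00000048521) on the plus strand of chromosome 9 from 123806475 to 123811760. All 5 are protein-coding genes. Cxcl10 lies whole inside Art3 on the other strand and shares 133 of its 2252 exon bases with it, and Cxcl16 shares 552 of its 3021 exon bases with Zmynd15 on the other strand. Cxcr6 lies inside Fyco1 on the other strand with 0 shared exon bases. Whether strand was used in counting is not given in the sources used here, so reads from the shared exon bases of Cxcl10 and Art3 and of Cxcl16 and Zmynd15 cannot be told apart. In the low-burden library Art3 had 77 UMIs (unique molecular identifiers, each counting 1 captured transcript) and Zmynd15 127, against 27 for Cxcl10 and 836 for Cxcl16, and in the high-burden library they had 68 and 615, against 3481 and 5577.

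The 250 bases before the start sites of Cxcl9 and Cxcl10 are shown because these neighbouring genes had the largest ratios between the libraries among the 5 and differed in the cell classes that carried them. The sequences are from RefSeq (GRCm38.p6), read 5′ to 3′ on the minus strand, at chr5:92328080-92328329 for Cxcl9 and chr5:92348890-92349139 for Cxcl10, and capitals mark matches to the motifs named next.
Cxcl9: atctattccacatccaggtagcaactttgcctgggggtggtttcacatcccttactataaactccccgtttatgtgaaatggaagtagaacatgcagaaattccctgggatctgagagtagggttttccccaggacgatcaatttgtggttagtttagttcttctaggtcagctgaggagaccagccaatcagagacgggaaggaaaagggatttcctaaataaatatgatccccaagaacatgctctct
Cxcl10: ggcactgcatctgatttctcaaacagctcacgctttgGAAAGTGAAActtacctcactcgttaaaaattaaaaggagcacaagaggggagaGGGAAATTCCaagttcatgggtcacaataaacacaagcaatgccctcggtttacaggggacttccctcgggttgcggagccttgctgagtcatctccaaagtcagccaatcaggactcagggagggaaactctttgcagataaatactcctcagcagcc
Both strands were searched for the interferon-stimulated response element (GAAA, any 2 bases, GAAA), the gamma-activated site (TTCNNNGAA) and an NF-kB site (GGGA, any 2 bases, TTCC). The Cxcl10 window held 1 interferon-stimulated response element, GAAAGTGAAA, starting 213 bases before the start site, and 1 NF-kB site, GGGAAATTCC, starting 159 bases before it, and these do not overlap. Of 32851 promoter windows of the same length, 2.98% held the first motif, 7.02% the second and 1.21% the NF-kB site. The Cxcl9 window held 0 matches to these letters. A match is a description of the sequence and not evidence of binding.

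The files held 2668 low-burden and 3121 high-burden barcodes with 14041471 and 52723173 UMIs, of which 2473 and 3033 cells passed the limits of the study (1000 to 7000 genes and at most 10% mitochondrial UMIs). The high-burden cells were deeper, with a median of 13998 UMIs per cell against 4073. The libraries shared 11 barcodes. Classes are named "-like" after the marker list that scored highest in each cell, and 4.29% of low-burden and 4.58% of high-burden cells stayed in no class. Levels are given as CPM, counts of a gene per 1000000 UMIs of the class, and all intervals are 95% intervals that cover counting error only. From epithelial secretory genes counted in 187 low-burden and 49 high-burden lymphocytes, free RNA was estimated at 8.12% of a low-burden and 20.0% of a high-burden cell. If the same in every class, this would give about 11.6 CPM of Cxcl9, 13.5 CPM of Cxcl10 and 21.7 CPM of Cxcl16 in the high-burden library. Metastatic cells held less Cxcl9 (8.28 CPM, 7.34 to 9.32), so the estimate is too high for some cells. It is used below as a rough guide only. The T-like class held 128 and 30 cells and the NK-like class 31 and 0, so receptor values in the high-burden library rest on few cells.

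Over all kept cells, Cxcl9 and Cxcl10 were close to absent from the low-burden library and abundant in the high-burden library. Cxcl9 had 8 UMIs (0.602 CPM) in the low-burden and 2985 UMIs (58.0 CPM) in the high-burden library, a 96.3-fold ratio (interval 48.8 to 223). Cxcl10 went from 27 UMIs (2.03 CPM) to 3481 UMIs (67.6 CPM), a 33.3-fold ratio (22.8 to 50.6). Cxcl16, already present at 836 UMIs (62.9 CPM), had 5577 UMIs (108 CPM), a 1.72-fold ratio (1.60 to 1.85). The receptors were lower in CPM. Cxcr3 had 83 and 104 UMIs (6.25 and 2.02 CPM, log2 ratio -1.63, -2.06 to -1.20), and Cxcr6 had 99 and 96 UMIs (7.45 and 1.87 CPM, log2 ratio -2.0, -2.42 to -1.58). Of the 14935 genes with at least 20 UMIs over both libraries, 11.9% were at least 2-fold higher and 29.5% at least 2-fold lower in the high-burden library, with a median log2 ratio of -0.32. The metastatic class, with 1396 cells in the high-burden library and 0 in the low-burden library, took part of the total. Without it the log2 ratios were 7.95 for Cxcl9, 6.24 for Cxcl10, 2.16 for Cxcl16, -0.91 for Cxcr6 and -0.45 for Cxcr3 (-0.91 to 0.01), so the receptor ratios came nearer to 0 and that of Cxcr3 could not be told from 0. With every cell thinned to 3000 UMIs the log2 ratios over all kept cells were -0.61 for Cxcr3, -0.65 for Cxcr6 and 1.33 for Cxcl16.

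**Figure D1:**
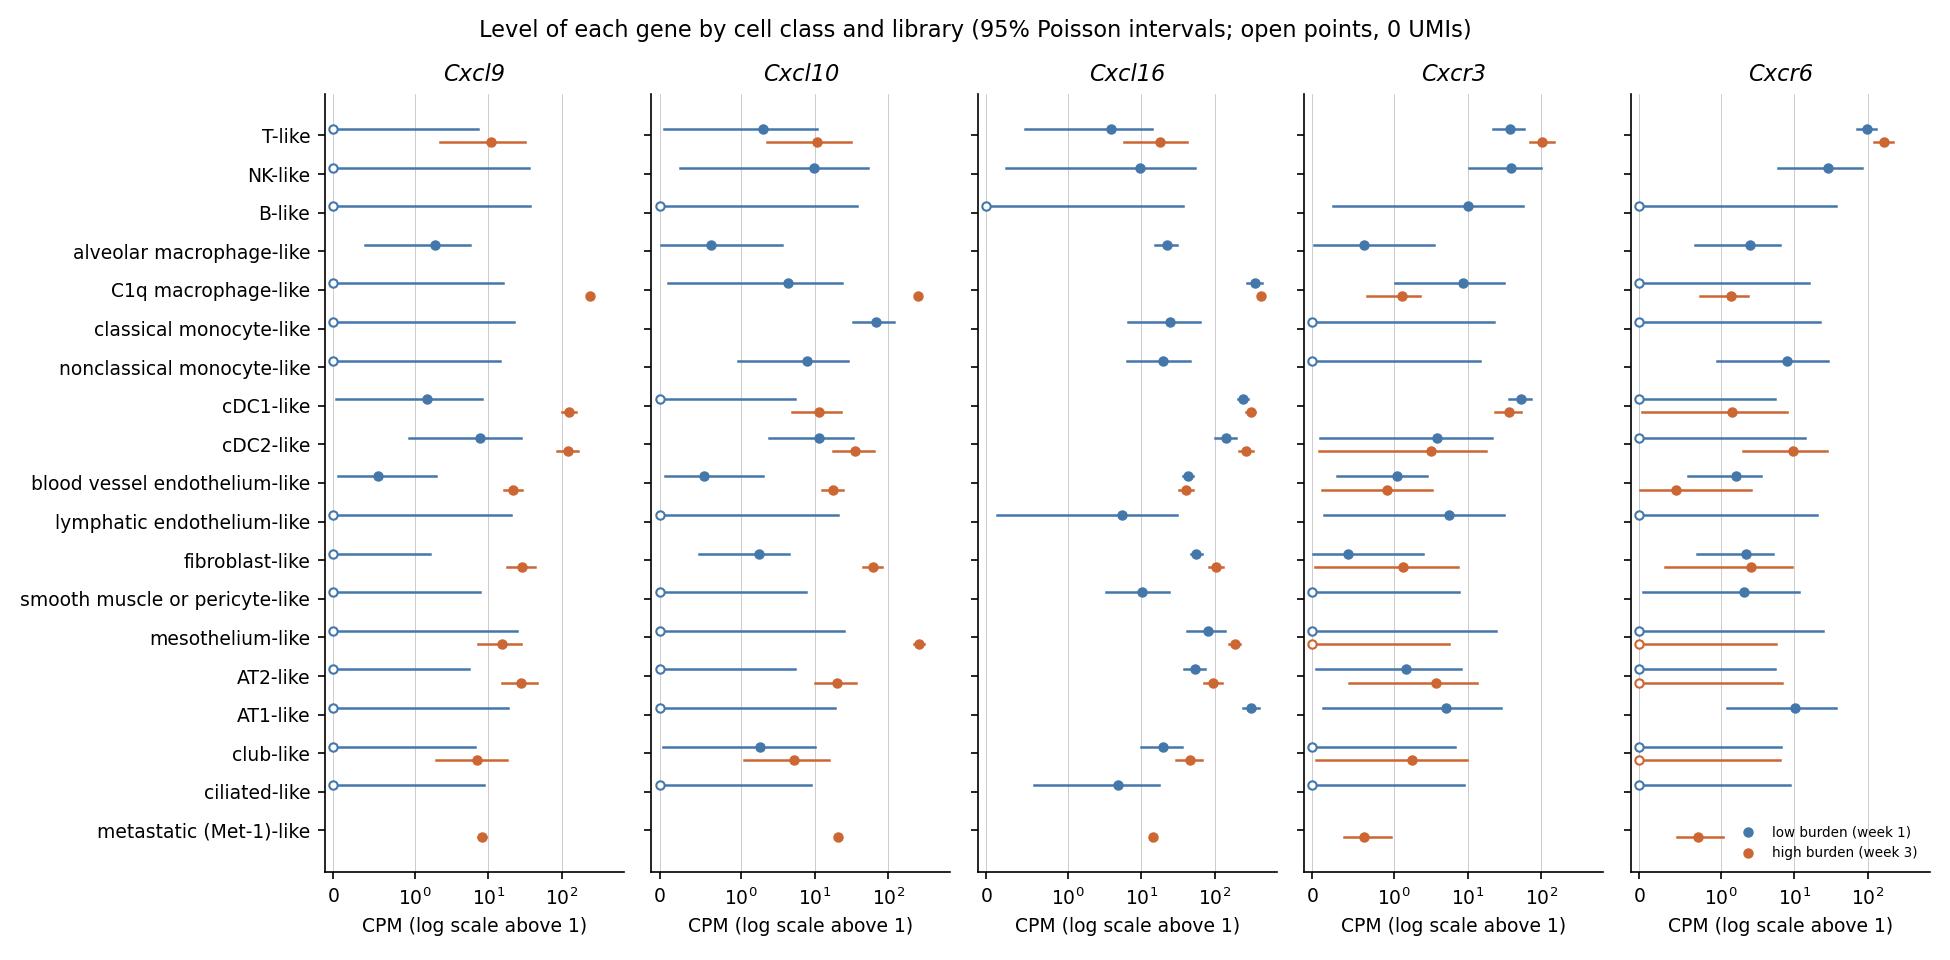
Level of each gene in CPM (x axis, linear to 1 and logarithmic above) in each cell class with at least 20 cells in a library (y axis), in the low-burden (blue) and high-burden (orange) library. Lines are 95% Poisson intervals and open points mark 0 UMIs. Cxcl9 and Cxcl10 lie near the left in low-burden classes and reach 242 and 251 CPM in high-burden C1q macrophage-like cells, while Cxcr3 lies highest in T-like and cDC1-like cells and Cxcr6 in T-like cells.

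The C1q macrophage-like cells carried most of the ligand transcripts of the high-burden lung. These cells, defined by complement C1q genes, Apoe, Ms4a7 and related macrophage markers, numbered 54 at low and 827 at high burden. Cxcl9 had 0 UMIs in the low-burden class and 2249 (242 CPM, 232 to 252) in the high-burden class, at least 18.9-fold higher when the 0 is set to 3 UMIs. With every cell thinned to 3000 UMIs this bound on the log2 scale was 3.49 in place of 4.24. Cxcl10 had 1 UMI (4.28 CPM) and 2334 UMIs (251 CPM, 241 to 262), a log2 ratio of 5.88 (3.40 to 11.2). Without the 1 low-burden cell that carried it and the top high-burden cell, the log2 ratio became a bound of 4.2. Cxcl16 was high in both, at 82 UMIs (351 CPM, 279 to 435) and 4015 UMIs (432 CPM, 419 to 446), a log2 ratio of 0.30 (-0.01 to 0.63) that could not be told from 0. Under 6 other settings its interval left out 0, from 0.36 (0.01 to 0.74) with a stricter gate to 0.63 (0.15 to 1.11) within cluster 18 alone. Among the 9595 genes measured in the class, 12.7% were at least 2-fold higher and 17.1% at least 2-fold lower, so Cxcl9 and Cxcl10 passed 2-fold and Cxcl16 did not. The class held 233871 low-burden UMIs of all genes and 9292246 high-burden ones.

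These cells held 75.3% of the Cxcl9 UMIs, 67.0% of the Cxcl10 UMIs and 72.0% of the Cxcl16 UMIs of the high-burden library. In the low-burden library the 8 Cxcl9 UMIs were in alveolar macrophage-like (3), dendritic (3) and endothelial (2) cells, 13 of the 27 Cxcl10 UMIs were in monocyte-like cells, and Cxcl16 was spread over dendritic (32.1%), endothelial (19%), stromal (17.3%), epithelial (13.4%) and C1q macrophage-like (9.81%) cells. For Cxcl16, which has enough UMIs in both, the makeup of the tissue and the level within classes could be set apart over the 17 classes with at least 5 cells in each library, which leave out the metastatic class and hold 92.2% of the low-burden and 87.3% of the high-burden Cxcl16 UMIs. The low-burden makeup with low-burden levels gave 73.7 CPM, the low-burden makeup with high-burden levels 104 CPM, the high-burden makeup with low-burden levels 237 CPM, and both from the high-burden library 297 CPM. Exchanging the makeup thus moved Cxcl16 more (3.22-fold) than exchanging the levels (1.41-fold). For Cxcl9 the same values were 0.478, 44.4, 0.280 and 157 CPM, and for Cxcl10 2.20, 41.5, 3.29 and 164 CPM. There the levels within classes moved the sum more, but the low-burden levels rest on few UMIs. The 17 classes held 62.5% of the 8 low-burden Cxcl9 UMIs and 85.2% of the 27 low-burden Cxcl10 UMIs. Makeup here is the share of UMIs in each class, and a class may hold different cells in each library.

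**Figure D2:**
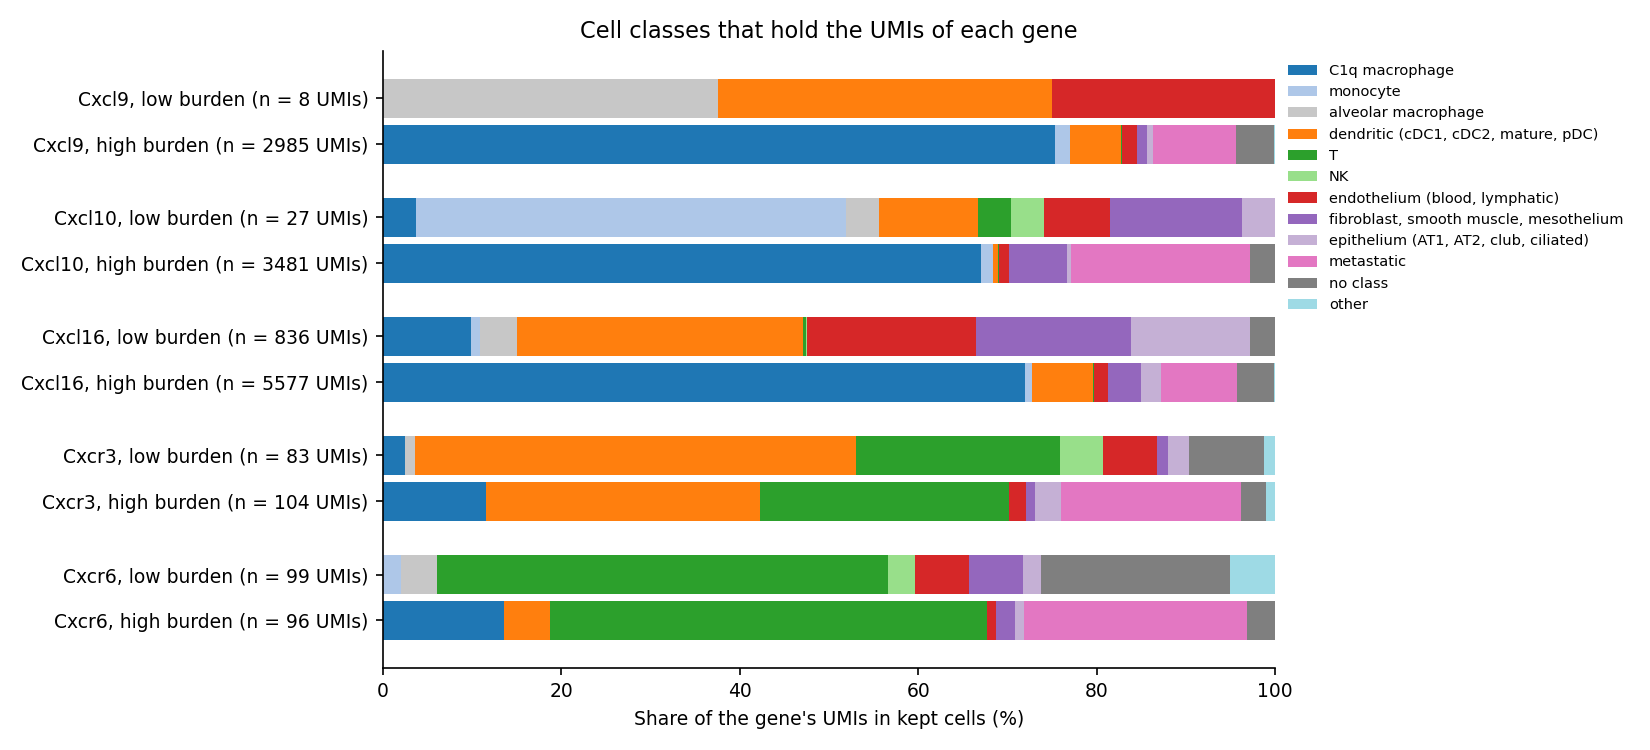
Share of the UMIs of each gene (x axis, %) by the class of cell that held them, for each gene and library (y axis, with its number of UMIs). C1q macrophage-like cells (dark blue) hold 75.3%, 67.0% and 72.0% of the high-burden Cxcl9, Cxcl10 and Cxcl16 UMIs, and the low-burden bars for Cxcl9 and Cxcl10 rest on 8 and 27 UMIs.

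The C1q macrophage-like class was not of the same cells in both libraries. Of its 54 low-burden cells, 42 were in cluster 18 (led by Cd209f, Pla2g2d, Mmp9 and Cxcl13), while 685 of the 827 high-burden cells were in cluster 1 (led by Ccl12, Ms4a4c, Ccl7 and Tnip3) and 90 in cluster 15 (led by Saa3, Marco, Prg4 and Cd5l). The clusters were made without the 5 genes but from other genes of the same cells, so levels between them are descriptions. Within cluster 18, Cxcl9 had 0 UMIs in 42 low-burden cells and 95 UMIs (586 CPM, 474 to 716) in 14 high-burden cells, at least 34.8-fold higher, with 6 cells carrying it and 41 of the UMIs in 1 cell. Cxcl10 there had 0 and 7 UMIs (43.1 CPM), at least 2.56-fold higher. Cxcl16 in cluster 18 was 359 CPM (277 to 458) and 555 CPM (446 to 682), a log2 ratio of 0.63 (0.15 to 1.11). The cells of cluster 18 differed between the libraries in other genes too, so this is not a comparison of the same cells. Lyve1 was 107 and 0 CPM, Mrc1 511 and 142 CPM, H2-Aa 12196 and 7082 CPM and Spp1 78.5 and 1504 CPM.

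Among the high-burden cells the clusters differed in the ligands they carried. Cluster 1 held 270 CPM of Cxcl9, 287 CPM of Cxcl10 and 485 CPM of Cxcl16. Cluster 15 held 4.08 CPM of Cxcl9 (1.11 to 10.4, below the estimate for free RNA), 60.1 CPM of Cxcl10 (45.8 to 77.6) and 56.1 CPM of Cxcl16, beside 335 CPM of Arg1 against 59.4 CPM in cluster 1 and 908 CPM of H2-Aa against 5117 CPM. Cluster 15 thus had Cxcl10 at levels above its Cxcl9, while cluster 18 had the reverse and cluster 1 had both.

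**Figure D3:**
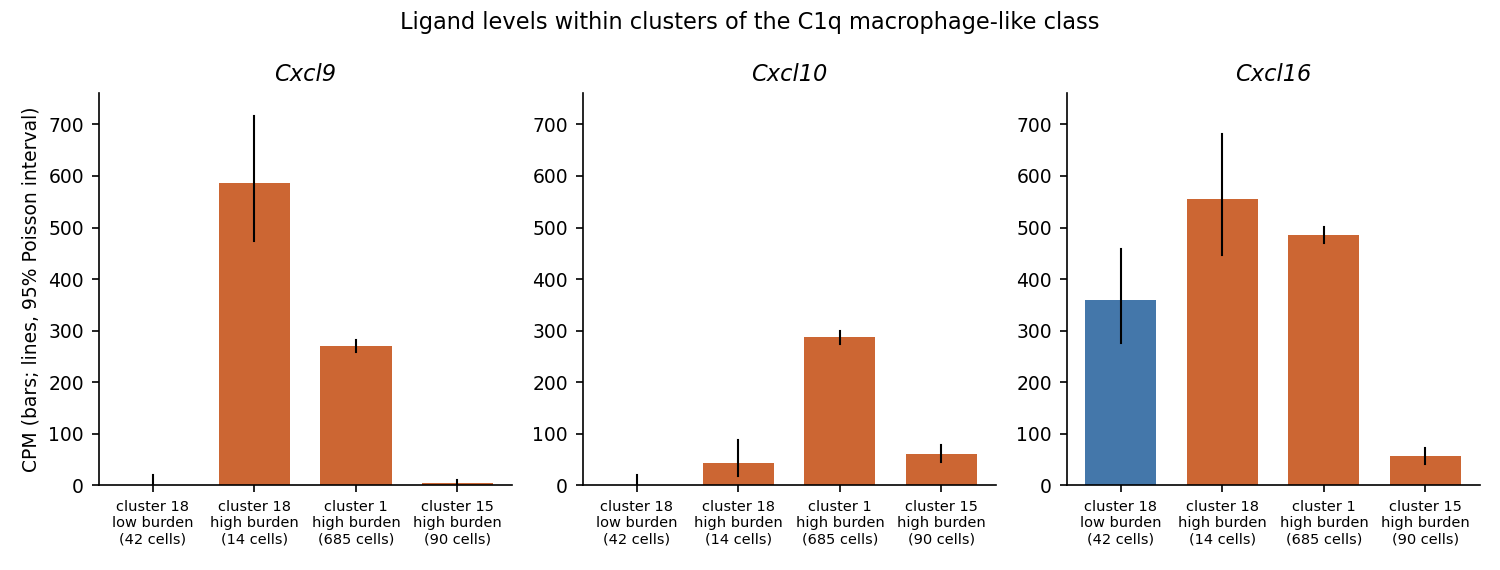
Cxcl9, Cxcl10 and Cxcl16 in CPM (y axis, bars from 0) in clusters of the C1q macrophage-like class, with 95% Poisson intervals as lines. Blue bars are low-burden and orange bars high-burden cells. In cluster 18, present in both libraries, Cxcl9 was 0 in the low-burden cells and 586 CPM in the high-burden cells, while cluster 15 had 4.08 CPM of Cxcl9 beside 60.1 CPM of Cxcl10.

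Each ligand was seen in part of the macrophages, and a cell with 0 UMIs may still express the gene. With each cell thinned to 3000 UMIs, which left out 8 low-burden cells of the class, Cxcl9 was seen in 160 of 827 high-burden cells (19.3%, 16.7 to 22.2) and in 0 of 46 low-burden cells (a count of 0 is read here as up to 3 cells, or 6.52%). Cxcl10 was seen in 214 of 827 (25.9%, 22.9 to 29.0) and in 1 of 46 (2.17%, 0.06 to 11.5). Cxcl16 was seen in 538 of 827 (65.1%, 61.7 to 68.3) and 27 of 46 (58.7%, 43.2 to 73.0). Without thinning the high-burden shares were 30.5%, 43.3% and 88.0%. In T-like cells, which should lack the ligands, each of the 3 was seen in 1 of 30 thinned high-burden cells (3.33%, 0.08 to 17.2), at a median depth of 8371 UMIs before thinning against 10473 in the macrophages. The Cxcl10 and Cxcl16 shares lie above that interval, while the lower bound of the Cxcl9 share lies just inside it.

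The UMIs were gathered in few cells. The 71 high-burden macrophages with 10 or more Cxcl9 UMIs held 75.9% of the Cxcl9 UMIs of the class, and the 64 with 10 or more Cxcl10 UMIs held 62.2% of its Cxcl10. As deposited, 147 cells carried both ligands, 105 carried Cxcl9 without Cxcl10, 211 carried Cxcl10 without Cxcl9 and 364 carried neither. At 3000 UMIs per cell, Cxcl10 was 592 CPM in the 160 cells with Cxcl9 and 144 CPM in the 667 without it, and Cxcl16 was 592 and 405 CPM.

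**Figure D4:**
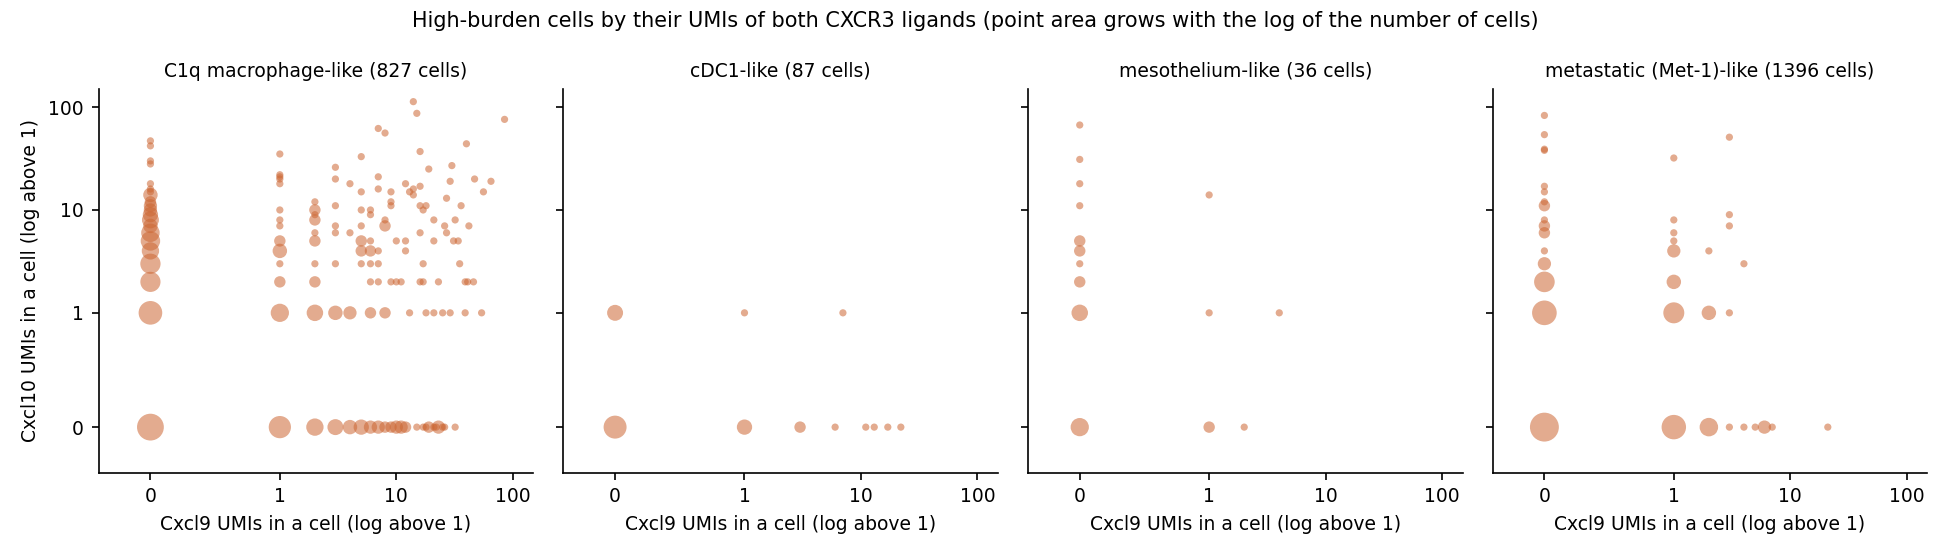
High-burden cells of 4 classes by their Cxcl9 (x axis) and Cxcl10 (y axis) UMIs as deposited, both axes linear to 1 and logarithmic above. The area of a point grows with the logarithm of the number of cells. C1q macrophage-like cells reach 85 Cxcl9 and 113 Cxcl10 UMIs and 147 carry both, cDC1-like cells reach 22 Cxcl9 and 1 Cxcl10 UMIs, and mesothelium-like and metastatic-like cells reach 67 and 83 Cxcl10 UMIs with few of Cxcl9.

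The macrophages with a Cxcl9 UMI also carried other interferon gamma targets and antigen presentation genes at higher levels, as a description within 1 library at equal depth. Gbp2, an interferon-inducible GTPase, was 319 CPM with and 88.5 CPM without Cxcl9, and Irf1 was 131 and 50.5 CPM. The MHC class II genes H2-Aa (9235 and 4134 CPM) and H2-Ab1 (9204 and 3773 CPM) went the same way. Genes often linked to tissue remodelling went the other way, with Spp1 at 925 and 1884 CPM, Arg1 at 43.8 and 103 CPM, Mrc1 at 62.5 and 130 CPM and Trem2 at 208 and 360 CPM. Split by Cxcl10 instead, H2-Aa was 6305 and 4707 CPM and Spp1 1488 and 1772 CPM, while Arg1 was 42.1 and 109 CPM. In that split Isg15 was 159 and 81.6 CPM and Ifit3 9.35 and 9.24 CPM. The 86 cells with an Arg1 UMI held 15.5 CPM of Cxcl9 against 271 CPM in the 741 without, 136 against 242 CPM of Cxcl10 and 194 against 470 CPM of Cxcl16. A split by Spp1 did not show this. The 751 cells with a Spp1 UMI held 245 CPM of Cxcl9 against 237 CPM in the 76 without. Cxcl10 was 224 against 294 CPM and Cxcl16 446 against 395 CPM. By cluster, Spp1 was 1825 CPM in cluster 1 and 720 CPM in cluster 15.

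Dendritic cells carried more Cxcl9 than Cxcl10. In cDC1-like cells (83 and 87 cells), which take up and cross-present antigen, Cxcl9 had 1 UMI (1.47 CPM) in the low-burden and 88 UMIs (127 CPM, 102 to 156) in the high-burden library, a log2 ratio of 6.44 (3.92 to 11.8), beside a background of 6.12% of 5576 genes at least 2-fold higher and 5.24% at least 2-fold lower. Of the 88 UMIs, 71.6% were in 4 cells, and without those cells the level was 38.8 CPM. Cxcl10 had 0 and 8 UMIs (11.5 CPM, within the estimate for free RNA). Cxcl16 was 242 CPM (165 UMIs) and 307 CPM (213 UMIs), a log2 ratio of 0.34 (0.04 to 0.65) whose interval included 0 with a stricter gate, clusters, median-of-ratios scaling or thinning. At 3000 UMIs per cell Cxcl9 was seen in 10 of 87 high-burden cells (11.5%) and 0 of 83 low-burden cells (up to 3.61%), and without thinning in 16.1% and 1.2%.

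In cDC2-like cells (37 and 39) Cxcl9 had 2 and 38 UMIs (7.64 and 122 CPM), a log2 ratio of 4.00 (2.05 to 7.10). This became a bound of 1.29 with a stricter gate, 1.92 with thinning and 2.88 without the top cells. Cxcl10 had 3 and 11 UMIs (11.5 and 35.3 CPM, 17.6 to 63.2 in the latter, above the estimate for free RNA), and Cxcl16 had 37 and 84 UMIs (141 and 270 CPM), a log2 ratio of 0.93 (0.36 to 1.53). Among 3273 genes in this class, 11.9% were at least 2-fold higher and 8.10% at least 2-fold lower. The clusters behind the gate differed, with 15 of 37 low-burden cells in cluster 9 and 23 of 39 high-burden cells in cluster 12. Mature dendritic-like cells were few (7 and 13 cells). They had the highest Cxcl16 of the classes, with 66 UMIs (1293 CPM) in the low-burden and 84 UMIs (783 CPM) in the high-burden library, and 0 and 45 UMIs of Cxcl9 (419 CPM in the high-burden library). Over the 3 conventional dendritic classes together, the high-burden library had 21 Cxcl10 UMIs to 171 Cxcl9 UMIs, a ratio of 0.123 (0.07 to 0.19), against 1.04 (0.98 to 1.10) in C1q macrophage-like cells.

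Classical monocyte-like cells were the highest Cxcl10 class of the low-burden library among those with at least 20 cells, with 11 UMIs in 4 of 41 cells (67.5 CPM, 33.7 to 121) and 0 UMIs of Cxcl9. The high-burden library held 14 such cells, too few for a ratio, with 49 UMIs of Cxcl9 (511 CPM) and 45 of Cxcl10 (470 CPM), 33 of the latter in 1 cell. Alveolar macrophage-like cells, 442 at low and 3 at high burden, had 3 Cxcl9 UMIs, 1 Cxcl10 UMI and 35 Cxcl16 UMIs (22.2 CPM) in the low-burden library.

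The mesothelium-like cells, which line the lung surface, were a second Cxcl10 class of the high-burden library. Cxcl10 had 0 UMIs in 21 low-burden cells and 175 UMIs in 36 high-burden cells (266 CPM, 228 to 308), at least 13.2-fold higher and not different from the macrophage level beyond their intervals. Cxcl9 had 0 and 10 UMIs (15.2 CPM, near the estimate for free RNA), so Cxcl10 UMIs outnumbered those of Cxcl9 by 17.5 to 1 (9.29 to 37.1). The 5 cells with 10 or more UMIs held 80.6% of the Cxcl10 and left 62.1 CPM in the rest, and C1qa, C1qb and C1qc summed to 234 CPM in them against 384 CPM in the other mesothelium-like cells. At 3000 UMIs per cell, Cxcl10 was in 11 of 36 cells (30.6%, 16.4 to 48.1) at high burden and 0 of 19 (up to 15.8%) at low burden, and without thinning 58.3% of the high-burden cells did. Cxcl16 was 80.3 CPM (12 UMIs) and 188 CPM (124 UMIs), a log2 ratio of 1.23 (0.37 to 2.22).

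Fibroblast-like cells (478 and 80) had 4 and 47 UMIs of Cxcl10 (1.76 and 61.5 CPM, log2 ratio 5.13, 3.68 to 7.06), 0 and 22 UMIs of Cxcl9 (28.8 CPM, at least 21.8-fold higher) and 128 and 80 UMIs of Cxcl16 (56.3 and 105 CPM, log2 ratio 0.89, 0.47 to 1.31). Of the 80 high-burden cells, 20 were in the cluster of mesothelium-like cells and held 30 of the 47 Cxcl10 UMIs (94.3 CPM) but 3 of the 22 Cxcl9 UMIs. The other 60 held 38.1 CPM of Cxcl10 (22.2 to 61.0) and 42.6 CPM of Cxcl9 (25.6 to 66.5). Among 9509 genes in this class, 6.06% were at least 2-fold higher and 12.4% at least 2-fold lower. AT2-like cells, the surfactant-producing cells of the alveolus (116 and 63), had 0 and 15 UMIs of Cxcl9 (27.8 CPM), 0 and 11 UMIs of Cxcl10 (20.4 CPM) and 37 and 51 UMIs of Cxcl16 (54.3 and 94.7 CPM, log2 ratio 0.80, 0.16 to 1.45), beside 8.02% of 5360 genes at least 2-fold higher and 5.60% at least 2-fold lower. Of the 15 Cxcl9 UMIs, 8 were in 1 cell, and the bound on the log2 ratio went from 2.66 to 1.59 without the top cells, 1.31 with a stricter gate and 1.47 with clusters. The AT2 intervals of Cxcl10 (10.2 to 36.5 CPM) include the estimate for free RNA. AT1-like cells, the flat cells of gas exchange, had Cxcl16 at 316 CPM (62 UMIs, 41 cells) in the low-burden library, a level whose interval overlaps that of C1q macrophage-like and cDC1-like cells, and 249 CPM (35 UMIs) in 15 high-burden cells.

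Blood vessel endothelium-like cells (571 and 191) had 2 and 48 UMIs of Cxcl9 (0.547 and 22 CPM, log2 ratio 5.33, 3.40 to 8.42), but 1 high-burden cell held 25 of the 48, and without it the level was 10.6 CPM against the 11.6 CPM estimated for free RNA. In that cell the summed C1q genes were 2257 CPM against 362 CPM in the other endothelial cells. Cxcl10 had 2 and 39 UMIs (17.9 CPM in the high-burden library, 12.7 to 24.4, which includes the 13.5 CPM estimated for free RNA). Of the 39 UMIs, 11 were in 1 cell, and without it the level was 12.9 CPM. Cxcl16 was 43.2 CPM (158 UMIs) and 40.8 CPM (89 UMIs), a log2 ratio of -0.08 (-0.48 to 0.30), which was -1.0 with free RNA subtracted and -0.48 (-1.31 to 0.29) with thinning to 3000 UMIs. Among 10928 genes in the class, 5.23% were at least 2-fold higher and 4.55% at least 2-fold lower.

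In the metastatic cells of the high-burden library, 1396 cells named by a Met-1 marker list, Cxcl9 was 8.28 CPM (276 UMIs), Cxcl10 20.9 CPM (697 UMIs) and Cxcl16 14.3 CPM (476 UMIs). Cxcl9 and Cxcl16 lay below the levels estimated for free RNA, and Cxcl10 lay above its 13.5 CPM. Of the Cxcl10 UMIs, 52.1% (363) were in 11 cells with 10 or more each, and the other cells held 10.1 CPM. The summed C1q genes were 249 CPM in those 11 cells and 270 CPM in the rest, and their Cxcl9 was 16.0 CPM. At 3000 UMIs per cell 3.72% of metastatic cells carried Cxcl10, 2.22% Cxcl9 and 3.58% Cxcl16, near the 3.33% of T-like cells.

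Ordered by CPM among high-burden classes with at least 20 cells, Cxcl9 was highest in C1q macrophage-like cells, then in cDC1-like and cDC2-like cells, which did not differ from each other beyond their intervals, and then in fibroblast-like and AT2-like cells at 28.8 and 27.8 CPM. For Cxcl10 the order was mesothelium-like and C1q macrophage-like cells, which overlapped, then fibroblast-like and cDC2-like cells, which overlapped too, with cDC1-like cells in place 8 of 10. Cxcl16 was highest in C1q macrophage-like cells, clear of the next, followed by cDC1-like, cDC2-like and mesothelium-like cells, each of which overlapped its neighbour. In the low-burden library the 3 highest Cxcl16 classes of that size, C1q macrophage-like, AT1-like and cDC1-like, each overlapped the next.

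The receptors were carried by lymphocytes and, for Cxcr3, by dendritic cells. In T-like cells Cxcr3 was 37.1 CPM (19 UMIs, 22.4 to 58.0) in the low-burden and 104 CPM (29 UMIs, 69.7 to 149) in the high-burden library, a log2 ratio of 1.49 (0.60 to 2.40). Cxcr6 was 97.7 CPM (50 UMIs, 72.5 to 129) and 169 CPM (47 UMIs, 124 to 224), a log2 ratio of 0.79 (0.18 to 1.39), which was 1.68 with cells thinned to 3000 UMIs. With clusters in place of gates it was 0.29 (-0.25 to 0.81) and with median-of-ratios scaling 0.46 (-0.14 to 1.07), which could not be told from 0. In this class 12.1% of 4281 genes were at least 2-fold higher and 10.9% at least 2-fold lower. By the gates both receptors were thus higher per UMI within T-like cells while lower over all kept cells, where T-like cells were 5.18% of low-burden and 0.989% of high-burden cells.

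At 3000 UMIs per cell, which left out 49 low-burden T-like cells, Cxcr3 was seen in 7 of 79 (8.86%, 3.64 to 17.4) and 8 of 30 cells (26.7%, 12.3 to 45.9), and Cxcr6 in 7 of 79 (8.86%) and 9 of 30 cells (14.7% to 49.4%). The intervals of the low-burden and high-burden shares overlap for both receptors (3.64 to 17.4 for the low-burden Cxcr6 share). Without thinning the shares were 9.38% and 36.7% for Cxcr3 and 15.6% and 50.0% for Cxcr6, at median depths of 3216 and 8371 UMIs. In AT2-like cells, which should lack the receptors, Cxcr3 was seen in 1 of 63 thinned high-burden cells (1.59%) and Cxcr6 in 0 of 63 (up to 4.76%), and in metastatic cells the shares were 0.21% and 0.29%. As deposited, 3 of 128 low-burden and 7 of 30 high-burden T-like cells carried both receptors.

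T-like cells were split by Foxp3, Cd4 and Cd8 UMIs, with few cells in each part. In the Foxp3 cells (8 and 8), the marker of regulatory T cells, Cxcr3 had 8 and 4 UMIs and Cxcr6 had 1 and 14 UMIs (18.6 and 165 CPM). In Cd4 cells without Foxp3 (24 and 6) Cxcr3 had 0 and 15 UMIs and Cxcr6 had 3 and 9. In Cd8 cells (46 and 9) Cxcr3 had 5 and 2 UMIs and Cxcr6 had 13 and 15 (77.1 and 189 CPM, 41.1 to 132 and 106 to 311). Cells with no coreceptor UMI (48 and 6) had 33 of the 50 low-burden Cxcr6 UMIs (199 CPM) and 9 high-burden ones (159 CPM). The 2 low-burden cells that passed a gate for type 2 innate lymphoid cells, left unnamed because none of those markers led them, had 5 Cxcr6 UMIs, and 21 more of the 99 low-burden Cxcr6 UMIs were in cells of no class.

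The other lymphocyte genes of the T-like class differed between the libraries in both directions. Over all 4281 genes of the class 12.1% were at least 2-fold higher and 10.9% at least 2-fold lower. Of 17 measured genes of the lymphocyte state list, 6 were at least 2-fold higher and 6 at least 2-fold lower, with a median log2 ratio of -0.34 against 0.13 over all genes. Among the higher were Pdcd1, an inhibitory receptor of activated T cells, at 21.5 and 201 CPM (log2 ratio 3.22), Il2ra at 13.7 and 115 CPM (3.07), Gzmb with 6 and 23 UMIs (2.82) and Nkg7 at 412 and 1076 CPM (1.38). Among the lower were Il7r, a cytokine receptor chain, at 260 and 14.4 CPM (log2 ratio -4.18), Ccr7 at 350 and 53.8 CPM (-2.70) and S1pr1 at 209 and 32.3 CPM (-2.69). Ifng, the interferon that induces Cxcl9, had 3 and 13 UMIs in T-like cells (5.86 and 46.6 CPM, log2 ratio 2.99, 1.13 to 5.44), and over all kept cells 19 and 24 UMIs (1.43 and 0.466 CPM). Ccl5, a chemokine of effector T and NK cells, was lower, at 1407 and 359 CPM (log2 ratio -1.97). Within the high-burden T-like cells, the 15 with Cxcr6 held 1496 CPM of Nkg7, 266 CPM of Pdcd1 and 581 CPM of Ccl5, against 612, 128 and 113 CPM in the 15 without. Gzmb went the same way, at 137 against 22.7 CPM. Other genes of the list went the opposite way. Il2ra was 75.2 against 159 CPM, Cd44 137 against 264 CPM and Cd69 41.0 against 128 CPM.

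Cxcr3 in cDC1-like cells was 52.8 CPM (36 UMIs, 37.0 to 73.1) in the low-burden and 36.1 CPM (25 UMIs, 23.3 to 53.2) in the high-burden library, a log2 ratio of -0.55 (-1.35 to 0.23) that could not be told from 0. Dendritic cells of all kinds held 49.4% of the low-burden and 30.8% of the high-burden Cxcr3 UMIs. At 3000 UMIs per cell 8 of 83 (9.64%) and 6 of 87 (6.90%) cDC1-like cells carried it, and without thinning 31.3% and 21.8%. Plasmacytoid dendritic-like cells, few at 6 and 9, had 4 and 6 UMIs (172 and 115 CPM). NK-like cells had 4 Cxcr3 UMIs (38.7 CPM) and 3 Cxcr6 UMIs (29.0 CPM) in 31 low-burden cells. Cxcr6 in cDC1-like cells had 0 and 1 UMIs. In the low-burden library the Cxcr3 levels of cDC1-like, NK-like and T-like cells overlapped in turn, whereas in the high-burden library T-like cells stood above cDC1-like cells, and cDC1-like cells above all other classes of at least 20 cells.

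Interferon gamma-induced genes other than the chemokines had a median log2 ratio above 0 in 6 of the 7 classes described, and below 0 in blood vessel endothelium-like cells. Over all genes of the C1q macrophage-like class 12.7% were at least 2-fold higher and 17.1% at least 2-fold lower. In these cells 11 of 16 measured genes of the list were at least 2-fold higher and 0 at least 2-fold lower, with a median log2 ratio of 1.56 against -0.08 over all genes. Of these 11, Gbp4, Irgm1 and Irgm2 had intervals that include 0. Examples were Gbp2 (3 and 1082 UMIs, 12.8 and 116 CPM, log2 ratio 3.18, 1.63 to 5.46), the immunoproteasome gene Psmb8 (239 and 712 CPM, 1.57, 1.19 to 1.98) and Iigp1 (17.1 and 97.1 CPM, 2.5, 1.14 to 4.38). The serpin gene Serpina3g had 12.8 and 86.2 CPM (2.75, 1.2 to 5.03). Ifngr1, a chain of the interferon gamma receptor, was lower (393 and 126 CPM, -1.64, -1.95 to -1.32).

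Type I interferon-induced genes were mostly too low in the 54 low-burden macrophages for a direction. Of 12 such genes with at least 20 UMIs, 6 had 0 low-burden UMIs and no bound, and of the other 6, 4 were at least 2-fold higher and 0 at least 2-fold lower. Isg15, a ubiquitin-like protein, was 17.1 and 91.3 CPM (log2 ratio 2.42, 1.05 to 4.29), and Ifi47 12.8 and 53.4 CPM (2.06, 0.50 to 4.34). Of the 6 genes of the type I signal, 3 were at least 2-fold higher, among them Irf7 with 1 and 476 UMIs (4.28 and 51.2 CPM, 3.58, 1.10 to 8.89), while the intervals of Ifnar1 and Stat2 include 0. For these short lists the shares over all genes of the class are 12.7% higher and 17.1% lower, as above. The 5 genes of chemokine processing had 0 higher and 2 lower, the syndecan Sdc4 (257 and 119 CPM, -1.11, -1.48 to -0.71), and Dpp4, whose protease product trims these chemokines (-1.50, -3.49 to 1.61). Adam10, a protease that sheds CXCL16, was 38.5 and 69.2 CPM (0.85, -0.09 to 1.98), and Adam17 72.7 and 42.0 CPM (-0.79, -1.49 to 0.00). Of 7 related ligands and receptors 2 were higher, among them Ccl5 (68.4 and 151 CPM, 1.14), and 3 lower, among them Cxcr4 (205 and 19.6 CPM, -3.39). Of 8 genes of tumor necrosis factor and NF-kB, Tnf was higher (34.2 and 115 CPM, 1.75) and Rela lower (64.1 and 32.0 CPM, -1.0). Of 11 measured macrophage state genes, 3 were higher (Spp1, 3.72, Fcgr1, 1.98, and Arg1, a bound of 2.75) and 3 lower (Mrc1, -2.06, H2-Eb1, -1.67, and H2-Aa, -1.25).

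In the other classes the interferon gamma-induced list had 2 of 7 genes at least 2-fold higher in cDC1-like, 6 of 10 in cDC2-like, 9 of 12 in fibroblast-like, 8 of 8 in AT2-like and 2 of 8 in T-like cells, with 0 at least 2-fold lower in each of these. Over all genes the share higher was 6.12%, 11.9%, 6.06%, 8.02% and 12.1% in these classes. The macrophage state list, which holds Spp1 and C1qa, had 6 of 8 genes at least 2-fold higher in fibroblast-like cells (median log2 ratio 2.69). It had 3 of 6 in AT2-like (1.58), 2 of 6 in cDC1-like (0.12), 2 of 9 in cDC2-like (0.37, 1 lower) and 2 of 4 in T-like cells (1.15, 2 lower). How much free RNA from macrophages adds to either list in these classes was not tested. For the interferon gamma-induced list, blood vessel endothelium-like cells went the other way, with 0 of 17 genes higher and 7 lower at 2-fold. The median log2 ratio was -0.73 against -0.08 over all genes of that class, of which 5.23% were higher and 4.55% lower at 2-fold. There Gbp4 was 106 and 47.6 CPM (-1.15, -1.48 to -0.84), Irgm1 58.5 and 23.8 CPM (-1.30, -1.76 to -0.85) and Psmb9 303 and 183 CPM (-0.73, -0.90 to -0.56). Serpina3g was an exception at 25.4 and 48.1 CPM (0.92, 0.50 to 1.34). The endothelial cells lay in different clusters, mostly 7 and 8 at low and 11 and 13 at high burden, and within each of these 4 clusters alone the median of the list was between -0.84 and -0.31 (a split chosen after the data were seen). Differences between classes in this list were not tested.

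**Figure D5:**
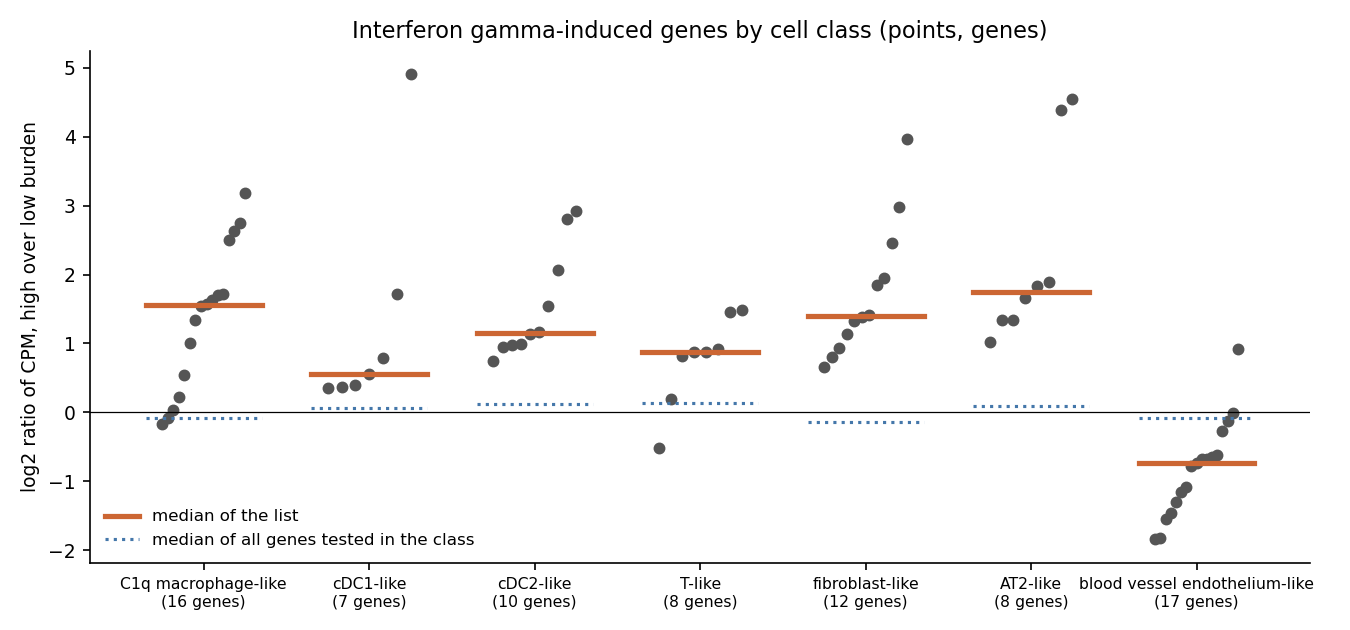
Log2 ratio of CPM, high over low burden (y axis), of each measured interferon gamma-induced gene (points) in 7 cell classes (x axis, with the number of genes). Thick lines are medians of the list and dotted lines medians of all genes tested in the class. The list median is 1.56 in C1q macrophage-like cells and -0.73 in blood vessel endothelium-like cells.

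The genes with the pattern most like each member were ranked by Pearson correlation of log2(CPM + 10) over 28 combinations of class and library, which share libraries and depth, so the coefficients are descriptions. For Cxcl9 they were Htr7 (r = 0.86), Gm15056 (0.83), Hmga1 (0.80), PYMT (0.78), the oncogene that the Met-1 line carries, and Gm26917 (0.73). For Cxcl10 they were Gm15056 (0.86), Saa3 (0.85), Ccl2 (0.77), Zbp1 (0.77) and Oasl1 (0.75). For Cxcl16 they were Zmynd15 (0.75), which shares exon bases with it, Rtn1 (0.75), Slamf8 (0.74), Timd4 (0.74) and Ciita (0.73). For Cxcr3 they were Ptpn22 (0.81), Tnfrsf18 (0.81), Tespa1 (0.80), Tbc1d10c (0.79) and Ipcef1 (0.79), and for Cxcr6 Tox (0.94), Cd40lg (0.92), Lck (0.90), Icos (0.89) and Tnfrsf4 (0.89). With 1 in place of 10 CPM added, 1 of the 5 remained for Cxcr3 and 1 of the 5 for Cxcr6. Between members, r was 0.66 for Cxcl9 and Cxcl10 and 0.70 for Cxcr3 and Cxcr6.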

How the data were processed

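Single-cell RNA sequencing of 1 low-burden and 1 high-burden lung was used as deposited. Per the submitters' processing notes, the authors ran Cell Ranger 2.0.2 on mm10, and the study added a PYMT sequence to the genome. The deposited values are raw counts (UMIs per gene and cell). Whether they precede the aggregation named in the study is not stated. The members, gene lists and tests were chosen with earlier results of these data known.

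Each cell was scored for 25 marker lists (mean of log2(1 + UMIs per 10000), scaled to the 20 highest cells) and took the best class when it led by 0.05 and had at least 3 markers. This scoring rule was set after the files were seen, and Zmynd15 was dropped from the markers because it overlaps Cxcl16. Differences from the study may come from these rebuilt names. In the low-burden library 87 cells and in the high-burden library 172 cells lay within 0.1 of the cut. Ratios used summed UMIs per class (20 or more cells in each library), exact Poisson and Clopper-Pearson intervals (scipy 1.17.1), and 3 UMIs in place of 0 (for a share at 0, 3 cells of the total, a limit other than the Clopper-Pearson one). Genes at 0 in 1 library whose bound had no direction were left out of list counts and of the background. Shares of cells used thinning to 3000 UMIs, which left out 607 low-burden cells. The scripts were tested on simulated data.

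Clusters came from Leiden (leidenalg 0.10.2, scanpy 1.11.5; 2000 variable genes, 10 components, 15 neighbours). Doublets were kept, since Scrublet marked 0.364% and 0.231% of cells, too few for the caller to have worked. Genes named were the 5 members, the 5 genes most like each (at least 50 UMIs, classes of 20 or more cells), and, from each list, up to 4 with the most UMIs or any past 2-fold whose interval leaves out 0. Other genes named beside a count or a cluster were chosen after their values were seen. The values within cluster 18, within endothelial clusters and in fibroblast-like cells outside the mesothelium cluster were chosen after the data were seen. Some genes of these lists are not reported here.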

Additional observations from a re-analysis of the deposited data

Results flagged for a closer look

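The interferon gamma-induced list differed in direction between cell classes. On the log2 scale its median ratio, high-burden to low-burden, was 1.56 in C1q macrophage-like, 0.55 in cDC1-like, 1.16 in cDC2-like, 1.40 in fibroblast-like, 1.75 in AT2-like and 0.88 in T-like cells, but -0.73 in blood vessel endothelium-like cells. The difference between these classes was not tested, because each group is 1 library. The part that free RNA has in these medians was not tested either.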

How the results depend on the processing

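No paired analysis was possible because each group is 1 library. Alternatives were no cell filter, a stricter gate, clusters in place of gates, doublets left out, median-of-ratios scaling, free RNA subtracted, thinning to 3000 UMIs, the top cell of each library left out and, over all cells, the metastatic class left out. In 209 alternatives of 27 ratios the sign was the same in 209, and in 174 the value stayed within the counting interval or within 1.5-fold of a bound. Alternatives that left too few UMIs for a ratio could not be formed and are not among the 209. Where a count was 0, the sign is that of a bound set with 3 UMIs, so it says little about stability. These counts include the runs without doublets, which removed only 9 low-burden and 7 high-burden cells and so could hardly move a ratio. Without the metastatic class the log2 ratios over all kept cells were 7.95 (Cxcl9), 6.24 (Cxcl10), 2.16 (Cxcl16), -0.45 (Cxcr3) and -0.91 (Cxcr6). For Cxcl16 over all kept cells, median-of-ratios scaling gave 1.15, subtraction of free RNA 0.58 and thinning 1.33. Thinning gave -0.61 for Cxcr3 and -0.65 for Cxcr6 over all kept cells, 1.68 for Cxcr6 in T-like cells, and bounds of 3.49 and 2.81 for Cxcl9 in C1q macrophage-like and cDC1-like cells. Without the top cells, Cxcl10 in C1q macrophage-like cells had a bound of 4.2 and Cxcl9 in cDC1-like cells one of 4.44. Within cluster 18 alone, chosen after the data were seen, the bounds were 5.12 for Cxcl9 and 1.36 for Cxcl10. Thinning lowers the counts, and so the bounds, by construction. The other causes were not tested. Settings also moved intervals across 0. Cxcr6 in T-like cells was 0.29 (-0.25 to 0.81) with clusters in place of gates and 0.46 (-0.14 to 1.07) with median-of-ratios scaling. Cxcl16 in C1q macrophage-like cells left out 0 with clusters (0.51), median-of-ratios scaling (0.47), thinning (0.44), the top cells left out (0.42), a stricter gate (0.36) and cluster 18 alone (0.63). Cxcl16 included 0 with a stricter gate in cDC1-like (0.29), cDC2-like (0.50), mesothelium-like (0.71) and club-like (0.66) cells, with clusters in AT2-like (0.43) and cDC1-like (0.25) cells, with median-of-ratios scaling in cDC1-like cells (0.29), without the top cells in club-like cells (1.01), and with thinning in all of these but cDC2-like cells. In endothelium-like cells Cxcl16 was -1.0 with free RNA subtracted. Many low-burden counts are of 0 to 4 UMIs, so the bounds and intervals there are wide.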
